A study of Mus musculus with 19 samples.

Results

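Akr1b7, Eif4ebp3, Dntt and AC151971.2 are 4 of the 51826 gene entries measured in the livers of 19 female Balb/c mice. They were picked by name because earlier results of these data placed them among the genes with the largest rises in lactation. The difference between lactating and nulliparous livers therefore chose them, and it is described here without a test. The study asked how the liver of women changes with pregnancy and weaning, and used rats and mice beside them. No pregnant mouse is among the livers described here. The 7 nulliparous mice had never given birth, 6 mice were at lactation day 10, and 6 mice were at involution day 6, the phase after weaning in which the liver regresses. Each library came from a separate animal labelled as 12 weeks old, and no group carried a treatment or an engineered allele. Mice are named by stage and animal number, as in NUL_1 (nulliparous), LAC_36 (lactation day 10) and ID6_230 (involution day 6). The methods name more than one supplier of the strain and do not tie an animal to either. Levels are in TPM, a share of all transcripts that is corrected for gene length and keeps no read depth, so the error of a value is the spread between mice. In whole liver, fewer cells of a type and less RNA per cell cannot be told apart.

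Akr1b7 encodes an aldose reductase-like enzyme that reduces aldehydes, best known from the vas deferens and the adrenal cortex. In liver and intestine it is a known target of the nuclear receptors LXR, PXR and CAR, which sense sterols, bile acids and foreign compounds. Eif4ebp3 encodes 4E-BP3, a small protein that binds the cap-binding factor eIF4E and so holds back translation. Its transcription is known to be driven by TFE3 when the kinase complex mTORC1 is inhibited for long. Dntt encodes terminal deoxynucleotidyl transferase, a family X DNA polymerase that adds untemplated bases at the joints of antibody and T cell receptor genes in developing lymphocytes. AC151971.2 carries only the name of a genomic clone.

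On the GRCm38 build, GENCODE places Akr1b7 (ENSMUSG00000052131) on the plus strand of chromosome 6 from base 34412334 to base 34423142, with 10 exons. Dntt (ENSMUSG00000025014) lies on the plus strand of chromosome 19 from 41029275 to 41059525, with 3 transcripts and up to 12 exons. Both are protein-coding. The bases just before the start site are shown for Akr1b7 and Dntt, the members with an entry in RefSeq's promoter table (GRCm38.p6). The stretches are read 5′ to 3′ on the plus strand, from chr6:34412112-34412333 and chr19:41029025-41029274, and capitals mark motif matches.
Akr1b7: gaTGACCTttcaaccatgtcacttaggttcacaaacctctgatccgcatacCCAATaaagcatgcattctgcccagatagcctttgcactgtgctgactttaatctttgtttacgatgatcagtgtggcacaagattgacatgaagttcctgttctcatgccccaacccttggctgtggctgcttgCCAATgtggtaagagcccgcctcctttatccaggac
Dntt: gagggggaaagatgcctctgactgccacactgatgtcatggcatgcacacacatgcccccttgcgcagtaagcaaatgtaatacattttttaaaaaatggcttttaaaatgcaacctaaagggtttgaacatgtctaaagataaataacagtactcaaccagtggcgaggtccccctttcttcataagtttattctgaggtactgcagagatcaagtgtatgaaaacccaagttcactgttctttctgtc

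Both strands were searched for 5 motifs. These were AGGTCA, the hexamer bound by nuclear receptors, TTCNNNGAA, the element bound by STAT factors, CACGTG, the E-box bound by TFE3 and its relatives, the TATA box TATAAA, and the CCAAT box CCAAT. The Akr1b7 stretch held AGGTCA on the minus strand, read as TGACCT, at 220 to 215 bases before the start. It also held CCAAT at 171 to 167 and at 36 to 32 bases before the start, and no match shared a base with another. Of the 32851 promoters of the table, 14.0% held AGGTCA and 33.8% held CCAAT within the 250 bases before the start. The Dntt stretch held none of the 5 motifs, which were present in 6.02% (CACGTG) to 33.8% (CCAAT) of all promoters. A match describes letters only, and binding was not measured.

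Akr1b7 was the most even of the 4 members among lactating livers. It ranged from 1.61 TPM to 6.82 TPM in nulliparous mice (median 2.93), from 14.38 to 26.31 TPM at lactation day 10 (median 24.05), and from 6.25 to 11.65 TPM at involution day 6 (median 9.13). Every lactating mouse was above every other mouse, while NUL_220, at 6.82 TPM, was above ID6_218 and ID6_209. Mean levels were 3.38 ± 1.68 TPM (SD, n = 7), 22.3 ± 4.31 TPM (n = 6) and 9.0 ± 2.21 TPM (n = 6), a 6.60-fold difference between lactating and nulliparous livers. On the log2(TPM + 1) scale, which understates differences of low genes, lactating and nulliparous livers differed by 2.46 (SE 0.20).

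**Figure D1:**
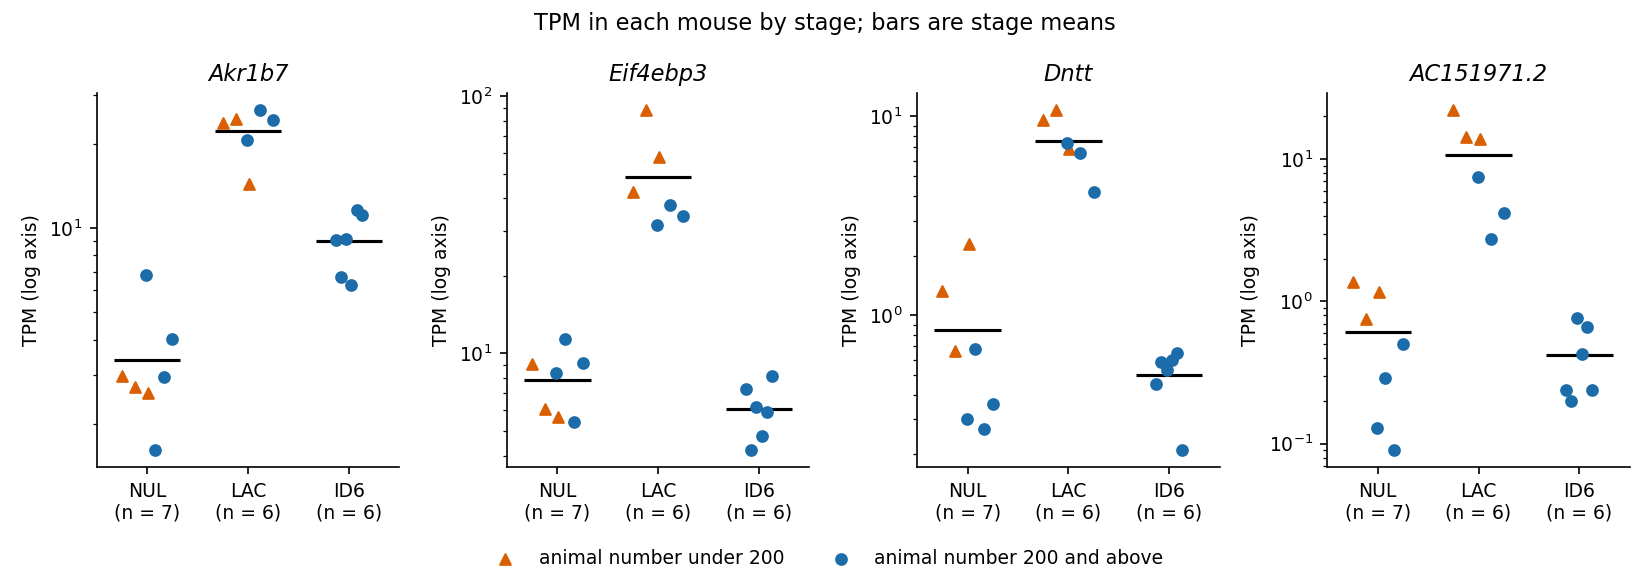
TPM of the 4 members in each mouse on a log axis, by stage, with bars at the stage means and symbols for animal numbers under 200 (triangles) and of 200 and above (circles). All 6 lactating mice sit above the other 13 mice in every panel, all 6 involution mice lie above the nulliparous mean for Akr1b7 alone, and the triangles sit above the circles in both nulliparous and lactating mice for AC151971.2.

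The stage means of the other Akr1b genes of chromosome 6 lay closer together. Akr1b3, the mouse aldose reductase, stood at 10.7 ± 2.10 TPM in nulliparous mice, 10.9 ± 2.51 TPM in lactation and 14.0 ± 2.33 TPM at involution. Akr1b10, which ends 15383 bases before Akr1b7 begins, stood at 2.31 ± 0.47, 3.19 ± 1.13 and 4.04 ± 0.49 TPM. Akr1b10 was higher at involution than in nulliparous livers by a log2 difference of 0.61 (limma adjusted p = 0.0267), where Akr1b3 and Akr1b8 did not pass. It was also higher at animal numbers of 200 and above, to which all involution mice belong, by 0.51 (limma adjusted p = 9.61e-04). Akr1b8 was lower in lactation than in nulliparous livers, with a log2 difference of -0.52 (SE 0.16, limma adjusted p = 0.0452). Akr1b7 therefore made up 16.0 ± 4.61% of the TPM of these 4 genes in nulliparous mice, 57.4 ± 6.42% in lactation and 28.3 ± 5.91% at involution. RSEM divides reads that fit several genes, but the Akr1b7 transcript shared only 11 of its 1182 windows of 100 bases (0.931%) with another transcript, that of the overlapping pseudogene Gm13857, which reached at most 0.17 TPM.

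Since Akr1b7 is an abundant adrenal transcript, adrenal markers were read beside it. The summed level of 12 adrenal genes was 0.5 to 12.73 TPM in nulliparous mice, 1.93 to 36.7 TPM in lactation and 7.35 to 16.53 TPM at involution. Most of it was Hsd3b1, a steroid dehydrogenase, at 0.12 to 11.97, 1.6 to 36.35 and 6.77 to 11.29 TPM. Hsd3b1 followed the range of animal numbers as well as the stage. In nulliparous mice it was 0.12 to 1.31 TPM in the 3 with numbers under 200 and 5.4 to 11.97 TPM in the 4 with numbers of 200 and above, and in lactation it was 1.6 to 3.64 TPM and 20.83 to 36.35 TPM in 3 mice each. Within each range, then, every lactating mouse had more Hsd3b1 than every nulliparous mouse. The log2 difference between the ranges was 2.80 (limma adjusted p = 4.26e-06). Among mice of the upper range alone Hsd3b1 was higher in lactation than in nulliparous livers by 1.74 (adjusted p = 0.00138) and lower at involution than in lactation by a log2 difference of -1.60 (adjusted p = 5.22e-04). Its part in the Akr1b7 level was not tested. Without Hsd3b1 and Star, the cholesterol carrier of steroid synthesis, the summed level of the other 10 was 0 to 0.21 TPM in nulliparous mice, 0 to 0.06 TPM in lactating mice and 0 to 5.31 TPM at involution. Dbh and Pnmt, enzymes of the adrenal medulla, were at 0 in all 19 mice. ID6_201 alone carried Cyp21a1 (2.3 TPM), Cyp11a1 (1.48 TPM) and Cyp11b1 (1.02 TPM), enzymes of adrenal steroid synthesis, above 1 TPM. Its Akr1b7 level of 9.09 TPM lay in the middle of its group.

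Eif4ebp3 (ENSMUSG00000090264), a protein-coding gene of 3 exons on the plus strand of chromosome 18 from 36664060 to 36665917, had the highest level of the 4 members in lactation. It ranged from 5.4 to 11.35 TPM in nulliparous mice (median 8.4), from 31.56 to 87.93 TPM at lactation day 10 (median 40.15) and from 4.2 to 8.17 TPM at involution day 6 (median 6.03). The lactating mice did not overlap the others, and LAC_102 and LAC_133, at 87.93 and 58.16 TPM, stood above the remaining 4. The means of 7.87 ± 2.23, 48.7 ± 21.4 and 6.08 ± 1.48 TPM gave a 6.18-fold difference between lactating and nulliparous livers and an 8.01-fold difference between lactation and involution. The log2 difference from nulliparous livers was 2.43 (SE 0.22).

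The stage means of the other 4E-BP genes lay close together. Eif4ebp1 stood at 26.1 ± 2.74, 28.6 ± 4.59 and 28.6 ± 3.0 TPM in nulliparous, lactating and involution livers, and Eif4ebp2 at 49.6 ± 5.77, 49.9 ± 5.54 and 53.0 ± 5.96 TPM. Eif4ebp3 thus held 9.33 ± 2.04% of the TPM of the 3 genes in nulliparous mice (6.59% to 11.6%), 37.0 ± 7.85% in lactation (30.4% to 50.1%) and 6.97 ± 1.72% at involution (4.42% to 9.07%). The highest share was that of LAC_102, in which Eif4ebp3 exceeded the other 2 genes together. Of its neighbours, Ankhd1, which ends 5146 bases before it, stood at 10.8 ± 1.09, 12.1 ± 1.94 and 11.8 ± 1.85 TPM (log2 difference in lactation 0.15, limma adjusted p = 0.429), and Sra1, 763 bases after it, differed by -0.14 (adjusted p = 0.169).

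GENCODE M21, the annotation used here for positions, also holds AC115631.1, a read-through entry that overlaps Eif4ebp3, and 405 of the 645 windows of 100 bases in the Eif4ebp3 transcript (62.8%) were identical to a stretch of it. No level under that name was analysed here. The authors counted with another, earlier release of the annotation, and whether reads of the shared stretch were divided between entries was not tested.

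**Figure D2:**
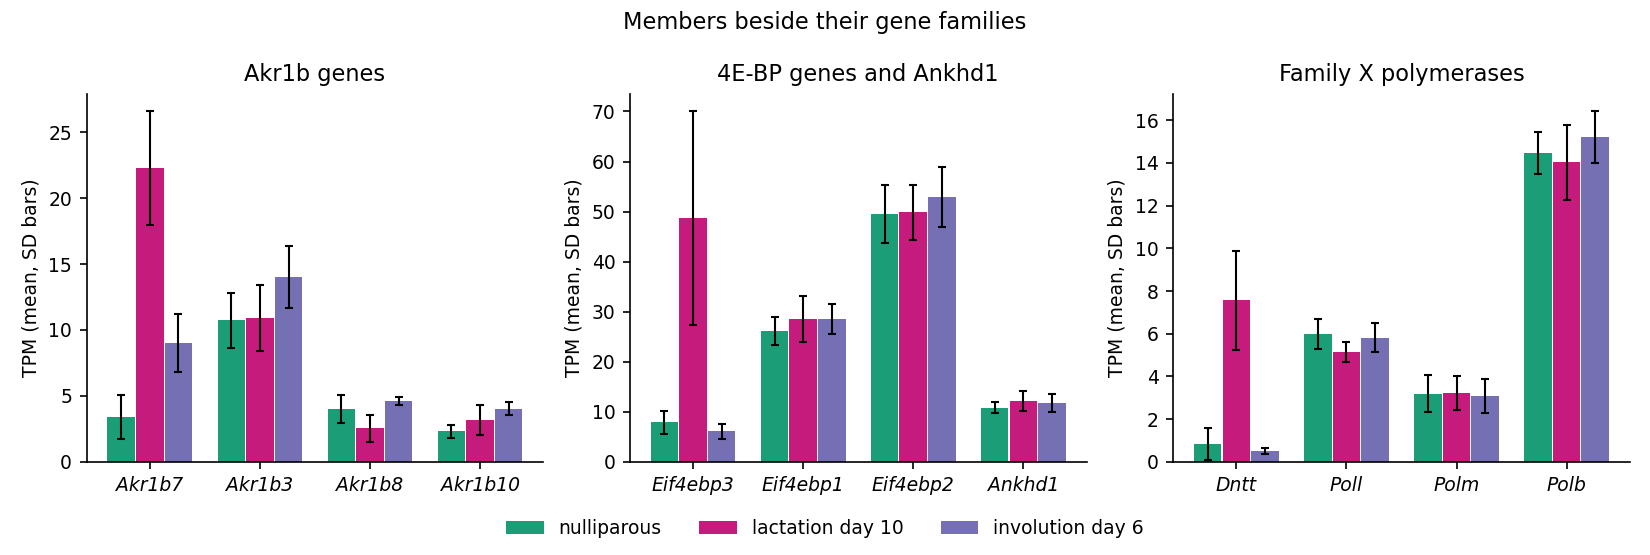
Mean TPM with SD bars in nulliparous (n = 7), lactating (n = 6) and involution (n = 6) livers for Akr1b7, Eif4ebp3 and Dntt beside genes of their families and the neighbour Ankhd1, on axes starting at 0. Akr1b7, Eif4ebp3 and Dntt show a tall lactation bar of 22.3, 48.7 and 7.56 TPM, while the stage means of each other gene differ by less than 2-fold.

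Dntt was low in every liver outside lactation. It ranged from 0.27 to 2.29 TPM in nulliparous mice (median 0.66), from 4.18 to 10.72 TPM at lactation day 10 (median 7.12) and from 0.21 to 0.65 TPM at involution day 6 (median 0.555). Each lactating mouse was above each other mouse, and the highest nulliparous values, 2.29 and 1.33 TPM, belonged to NUL_13 and NUL_1. The means were 0.841 ± 0.736, 7.56 ± 2.34 and 0.503 ± 0.159 TPM, an 8.98-fold difference between lactating and nulliparous livers. The log2 difference was 2.25 (SE 0.21), and no window of its 3 transcripts was shared with another gene.

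Lymphocyte genes were read beside it. Rag1 and Rag2, which cut antigen receptor genes before Dntt acts, were at 0 TPM in all 19 mice. The summed level of 16 B and T cell genes, not all of them limited to early cells, was 2.98 to 7.96 TPM in nulliparous mice (median 6.15), 2.94 to 4.64 TPM in lactation (median 3.76) and 5.7 to 9.05 TPM at involution (median 7.39). Of the 8 that passed the filter of 0.1 TPM, 0 were higher in lactation than in nulliparous livers by limma at an adjusted p under 0.05, against 2.72% of all genes, and 2 were lower, against 6.49%. At an unadjusted p under 0.05, 1 was higher and 5 were lower. The 2 lower genes were Cd79b of the B cell receptor (log2 difference -0.76, limma adjusted p = 0.00140) and Cd3g of the T cell receptor complex (-0.50, adjusted p = 0.0246). Vpreb1, Vpreb3 and Flt3 did not pass, at 0.001, 0.58 and -0.11 (limma adjusted p = 0.998, 0.101 and 0.109). From lactation to involution 5 of the 8 were higher and 0 lower (4 and 0 after median-ratio scaling), against 18.1% and 4.73% of all genes, and these were Cd3e, Cd3g, Cd79a, Cd79b and Flt3. Among mice numbered 200 and above alone, 10 genes were tested. There, 1 was lower and 0 higher in lactation, and 4 were higher and 0 lower from lactation to involution. With the range of numbers as a covariate, 2 of 8 were lower in lactation, and 3 were higher from lactation to involution. The shares of all genes are those of the unscaled fit of all 19 mice, and none are given for the other settings. The other family X polymerases, which repair DNA, had stage means close together, with Poll at 5.99 ± 0.72, 5.16 ± 0.48 and 5.82 ± 0.67 TPM, Polm at 3.19 ± 0.87, 3.22 ± 0.80 and 3.09 ± 0.80 TPM and Polb at 14.5 ± 0.99, 14.0 ± 1.77 and 15.2 ± 1.21 TPM. In lactation the mean level of Dntt lay above those of Poll and Polm. Its neighbours on chromosome 19 were low, with Blnk at means of 0.393 to 0.538 TPM and Opalin at 0 in all mice.

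AC151971.2 had the largest difference and the widest spread. It ranged from 0.09 to 1.37 TPM in nulliparous mice (median 0.5), from 2.77 to 22.03 TPM at lactation day 10 (median 10.8) and from 0.2 to 0.76 TPM at involution day 6 (median 0.335). No lactating mouse overlapped another stage, yet the lactating mice themselves differed by 7.95-fold from lowest to highest, against 1.83-fold for Akr1b7, 2.56-fold for Dntt and 2.79-fold for Eif4ebp3. The means of 0.614 ± 0.504, 10.8 ± 7.31 and 0.422 ± 0.239 TPM differed by 17.6-fold between lactating and nulliparous livers, with a log2 difference of 2.66 (SE 0.33). A total of 10 entries carry this clone name. AC151971.8, singled out after its values were seen, was listed at 0 in all 13 nulliparous and involution mice and at 0.16, 0.04, 0.25, 0.25, 0.15 and 0.3 TPM in LAC_102, LAC_133, LAC_200, LAC_213, LAC_240 and LAC_36. Its mean was below the filter and it was not tested. The other 8 entries reached at most 0.52 TPM in a mouse.

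All 4 members passed the filter on low values (a mean of at least 0.1 TPM), as did 16230 entries. For all 4, every lactating mouse was above every nulliparous mouse, a pattern shown by 0.98% of the tested genes, and all 4 were called higher (adjusted p under 0.05 and a log2 difference of at least 1), as were 0.431%. The choice of members used these values, and nothing is read from them. Every lactating mouse was also above every involution mouse for all 4, against 2.16% of genes, with the same lactating mice in both comparisons, and no member had every involution mouse above every nulliparous mouse, a pattern shown by 1.84%. In order of abundance, Eif4ebp3 moved from rank 6346 among the entries in nulliparous mice to rank 1854 in lactation and rank 7340 at involution, Akr1b7 from 8803 to 3345 and 6180, Dntt from 11912 to 6424 and 12932, and AC151971.2 from 12521 to 5291 and 13243.

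Whether the members were back at the nulliparous level 6 days after weaning could be tested, although the nulliparous mice of this comparison had taken part in the choice. A choice for large rises favours low values in these nulliparous mice, which tilts the tests towards higher levels at involution. In limma's fit, 0.253% of genes were called between involution day 6 and nulliparous livers, 13 of them higher (0.0801%). Of the 70 genes called higher in lactation, 4 were among these 13, and 3 were called lower at involution than in nulliparous livers. Akr1b7 was one of these 4, with a log2 difference of 1.24 (SE 0.20, 95% interval 0.81 to 1.66, adjusted p = 0.00369). Its mean was 2.66-fold the nulliparous mean, and 29.7% of the lactation difference in TPM remained, or 50.2% on the log2(TPM + 1) scale. A two-sided exact permutation test of the difference of 5.62 TPM gave p = 0.00233. The other 3 members were not called. Their log2 differences were -0.31 for Eif4ebp3 (interval -0.77 to 0.14, adjusted p = 0.373), -0.22 for Dntt (-0.65 to 0.22, adjusted p = 0.534) and -0.14 for AC151971.2 (-0.83 to 0.55, adjusted p = 0.822). Dntt and AC151971.2 lay near or under 1 TPM in both groups, where this scale compresses differences.

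All involution mice carried animal numbers of 200 and above, while 3 of the nulliparous mice had lower numbers, so the stage and the range of numbers cannot be told apart for those mice. Among mice of the upper range alone, Akr1b7 differed by 1.13 and no longer passed (adjusted p = 0.0539), and the exact permutation test gave p = 0.0190, where the smallest possible value is 0.00476. Dntt and AC151971.2 turned from slightly lower to slightly higher there, at 0.10 (adjusted p = 0.836) and 0.18 (adjusted p = 0.787). Without ID6_201, which carried the adrenal transcripts, the difference in Akr1b7 was 1.23 (adjusted p = 0.00937).

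**Figure D3:**
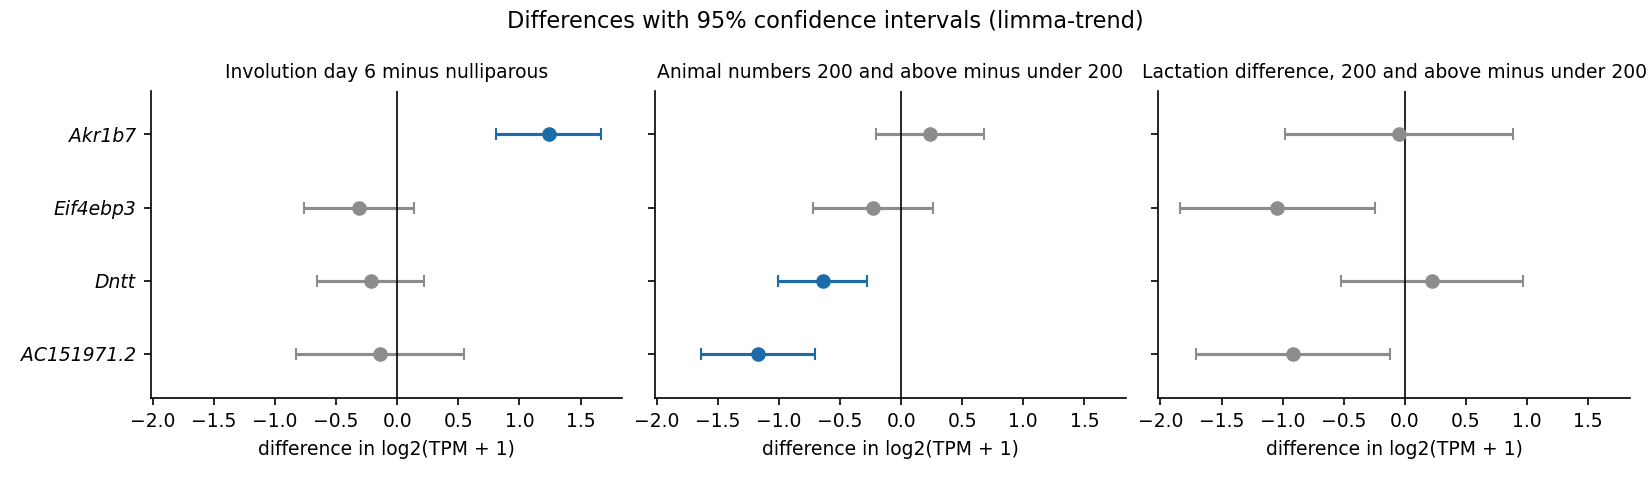
Differences in log2(TPM + 1) with 95% intervals from limma-trend for the 4 members, with involution day 6 minus nulliparous on the left, animal numbers of 200 and above minus lower numbers in the middle (13 nulliparous and lactating mice) and the difference between ranges in the lactation difference on the right. Blue marks an adjusted p under 0.05, which is seen for Akr1b7 on the left and for Dntt and AC151971.2 in the middle.

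The labels name no batch, and the 2 ranges of animal number are used because earlier results of these data set the libraries apart by them. Between the ranges, with stage in the fit over 13 nulliparous and lactating mice, 1.95% of 16179 genes were called (1.2% lower in the upper range) and 25.6% had an adjusted p under 0.05 (9.14% lower). Of the 70 genes called higher in lactation, 8 were called lower in the upper range and 4 higher. AC151971.2 was called, lower in the upper range by a log2 difference of -1.17 (SE 0.22, interval -1.64 to -0.71, adjusted p = 0.00165). In nulliparous mice it stood at 1.37, 1.17 and 0.75 TPM in NUL_1, NUL_13 and NUL_4, against 0.13, 0.29, 0.09 and 0.5 TPM in NUL_220, NUL_221, NUL_226 and NUL_227. In lactation it stood at 14.25, 13.98 and 22.03 TPM in LAC_102, LAC_133 and LAC_36, against 7.55, 2.77 and 4.17 TPM in LAC_200, LAC_213 and LAC_240. In both stages every mouse under 200 was above every mouse from 200 on, a pattern shown in this direction by 5.09% of genes.

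Dntt leaned the same way, by -0.64 (SE 0.17, interval -1.0 to -0.28, adjusted p = 0.0133), short of the size threshold on the log2(TPM + 1) scale. With a pseudocount of 0.1 TPM, Dntt differed by -1.09 (adjusted p = 0.0135) and passed it, and AC151971.2 differed by -1.87 (adjusted p = 4.11e-04). In nulliparous mice it was 1.33, 2.29 and 0.66 TPM under 200 and 0.3, 0.68, 0.27 and 0.36 TPM from 200 on. In lactation it was 10.72, 6.86 and 9.65 TPM under 200 and 7.37, 6.58 and 4.18 TPM from 200 on, with 1 mouse of each range crossing over in each stage. Akr1b7 (0.24, interval -0.21 to 0.68, adjusted p = 0.434) and Eif4ebp3 (-0.23, interval -0.72 to 0.26, adjusted p = 0.490) did not pass.

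The lactation difference itself was present in both ranges for all 4 members. Mice of both ranges took part in the choice of members, and every lactating mouse was above every nulliparous mouse. A rise in each range was therefore given in advance, and only its size is described. Akr1b7 in lactation was 7.58-fold its nulliparous mean under 200 and 6.18-fold from 200 on, and Dntt was 6.36-fold and 15.0-fold. AC151971.2 was 15.3-fold and 19.1-fold. Eif4ebp3 was 9.06-fold and 4.02-fold, with lactating values of 87.93, 58.16 and 42.51 TPM under 200 and 31.56, 37.79 and 34.12 TPM from 200 on. On the log2(TPM + 1) scale the difference between ranges in the lactation difference was -1.05 for Eif4ebp3 (interval -1.84 to -0.25, adjusted p = 0.261), -0.92 for AC151971.2 (-1.71 to -0.12, adjusted p = 0.313), 0.22 for Dntt (-0.53 to 0.96, adjusted p = 0.802) and -0.05 for Akr1b7 (-0.98 to 0.89, adjusted p = 0.968). None passed, and 0.0804% of all genes did. The unadjusted limma p was 0.0144 for Eif4ebp3 and 0.0268 for AC151971.2, a level under 0.05 that 13.2% of genes reached. The AC151971.2 value rested on the scale and was 0.016 with a pseudocount of 0.1 TPM.

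Pathways around the members were read from lists of related genes, each without the member itself. The shares of all genes beside their counts are from the unscaled fit of all 19 mice and are no baseline for the other settings. Of 14 tested aldo-keto reductases, 1 was higher and 2 were lower in lactation than in nulliparous livers at an adjusted p under 0.05 (1 and 1 after scaling), beside the same 2.72% and 6.49% of all genes. The higher one was Akr1c19 (log2 difference 0.83, limma adjusted p = 2.09e-04), which stood at 24.3 ± 4.50, 44.0 ± 7.56 and 21.4 ± 2.08 TPM. The list's median difference was -0.01, beside -0.03 over all genes. From lactation to involution 3 were higher and 1, Akr1c19, was lower by a log2 difference of -1.0 (adjusted p = 1.49e-05), with 1 and 2 after scaling. Of all genes, 18.1% were higher and 4.73% lower in that comparison. Of 15 genes of LXR, PXR and CAR with their liver targets, 2 were higher and 3 lower in lactation. The list gave 2 and 1 after scaling, and 5 and 4 with the range as a covariate. Cyp2c55, a target of PXR and CAR, was higher by 1.06 (adjusted p = 0.0169) and the cholesterol exporter Abca1 by 0.47 (adjusted p = 0.0311), while the sterol exporter Abcg8 was lower by a log2 difference of -0.47 (adjusted p = 0.0260). Among mice of the upper range alone, 2 were higher and 3 lower, with Cyp2c55 at 1.21 (adjusted p = 0.00383), Abcg8 at -0.60 (adjusted p = 0.0315) and Abca1 at 0.29 and no longer past the test (adjusted p = 0.358).

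In the unscaled fit of all 19 mice, 7 of these 15 receptor genes and targets were higher from lactation to involution and 4 lower. Of all genes, 18.1% were higher and 4.73% lower in that fit. The list gave 4 and 4 after scaling, 5 and 2 in the upper range alone, and 6 and 2 with the range as a covariate. Cyp2b10, the classical CAR target, fell by 1.76 on the log2 scale (limma adjusted p = 2.68e-04) and Cyp2c55 fell by 1.30 (adjusted p = 0.00224), while Abcg8 rose by 0.99 and Abcg5, its partner, by 0.94. Cyp2b10 and Cyp2c55 also differed between the ranges, lower from 200 on by log2 differences of -0.96 (adjusted p = 0.00243) and -0.95 (adjusted p = 0.00164), and all involution mice are of that range. In the upper range alone the change from lactation to involution was -1.27 for Cyp2b10 (adjusted p = 8.41e-04) and -0.95 for Cyp2c55 (adjusted p = 0.00457). Srebf1, an LXR target that drives lipid synthesis, was 1.51 higher at involution than in nulliparous livers (adjusted p = 0.00865), as 1 of 4 higher genes of the list in that comparison (3 after scaling), and 1 was lower (0 after scaling), against 3.44% and 0.912% of all genes. Srebf1 was also higher from 200 on by 0.97 (adjusted p = 0.00343), and in the upper range alone it was 0.96 higher at involution and did not pass (adjusted p = 0.0564), where 1 gene of the list was higher and 0 lower. With the range as a covariate the Srebf1 difference was 1.09 (adjusted p = 0.00838), with 4 genes higher and 0 lower. The median difference of all genes between lactation and involution was 0.10, and -0.01 after median-ratio scaling.

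Around Eif4ebp3, 0 of 12 genes of eIF4E, its partners and the other 4E-BPs passed limma's test in lactation, also after scaling (2 were lower at an unadjusted p under 0.05), and the list's median difference was -0.03. Of all genes, 2.72% were higher and 6.49% lower in lactation, and these shares also stand beside the lactation counts below. At involution, 4 of the 12 were higher than in lactation (2 after scaling and 2 in the upper range alone), against 18.1% of all genes. The largest difference was that of Eif4b (0.53, limma adjusted p = 2.87e-05), a cofactor of the helicase that unwinds messenger RNA. Of 18 genes of mTORC1 and TFE3/TFEB, 1 was higher in lactation and 0 were lower (2 and 0 after scaling). This was Ddit4, which encodes the mTORC1 inhibitor REDD1 and also stands in the list of 11 tested ATF4 targets as the one gene that passed there (2 after scaling). It stood at 5.86 ± 2.51, 17.0 ± 4.48 and 6.58 ± 1.53 TPM, with a log2 difference of 1.45 in lactation (adjusted p = 5.48e-04) and -1.24 from lactation to involution (adjusted p = 9.87e-04). Tfe3 itself differed by 0.15 in lactation (limma adjusted p = 0.820). It was higher from 200 on by 1.24 (adjusted p = 1.23e-06), the 1 gene of the 18 called between ranges, against 1.95% of all genes. Its part in the Eif4ebp3 level was not tested. Around Dntt, 10 genes of end joining and the family X polymerases gave 1 lower gene in lactation, Xrcc5 (-0.23, adjusted p = 0.0394). The list gave none after scaling or in the upper range alone, and 2 lower genes with the range as a covariate. Of the 3 tested adrenal genes, 0 passed limma's test between any of the stages when the ranges were pooled, with 0 also at an unadjusted p under 0.05. With the range as a covariate Hsd3b1 passed, at 1.40 in lactation (adjusted p = 3.31e-04) and -1.40 from lactation to involution (adjusted p = 7.96e-04).

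The genes whose levels followed each member most closely over the 19 mice were taken from 11605 entries with a mean of at least 1 TPM, by Pearson's r of log2(TPM + 1). These values share the 3 stages, so a gene that was high in lactation ranks high, and no test is given. Dntt was followed by Gm2a (r = 0.95), an activator of lysosomal lipid breakdown, by AC151971.2 (0.95), the small GTPase Rnd2 (0.94), Serpina1e (0.93) and Akr1c19 (0.93). AC151971.2 was followed by Serpina1e (0.96), Dntt (0.95), Gm2a (0.95), Ly6d (0.94) and Plxnb1 (0.93). Eif4ebp3 was followed by Dntt (0.92), Rnd2 (0.91), Serpina1e (0.91), AC151971.2 (0.91) and Fads6 (0.90). Akr1b7 had other followers, Dtnb (0.89), Tkt of the pentose phosphate pathway (0.89), Pglyrp2 (0.89), Ifi27l2b (0.89) and the lysosomal enzyme Hexa (0.88). Its r with the other members was 0.69 to 0.73, while those 3 had r of 0.91 to 0.95 with each other.

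**Figure D4:**
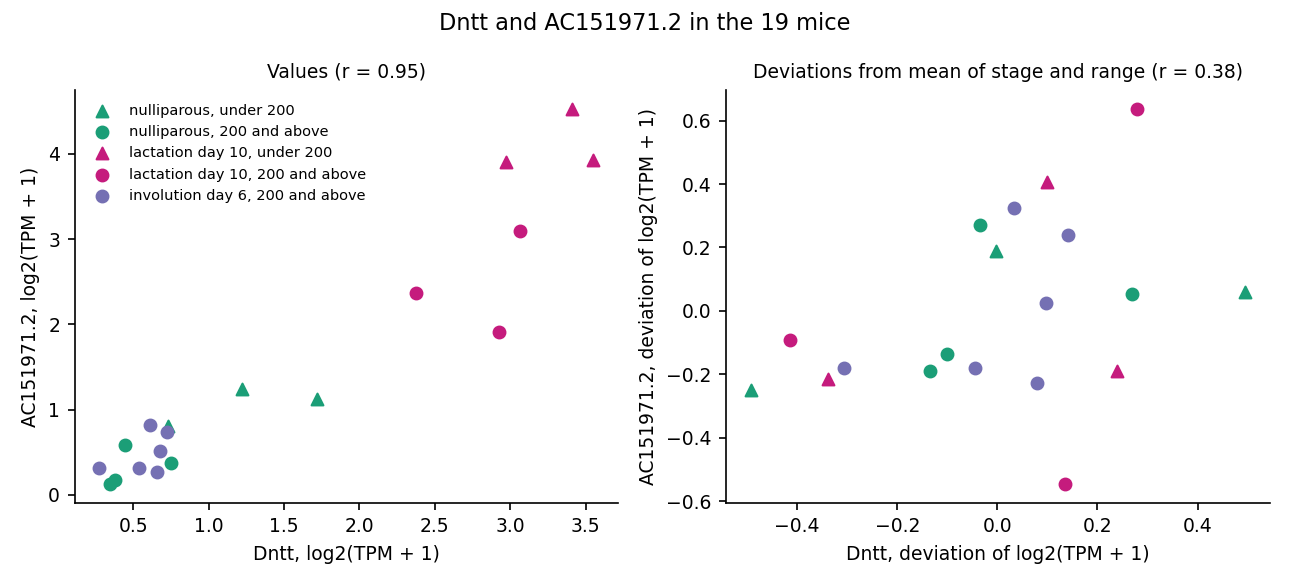
Dntt against AC151971.2 in log2(TPM + 1) over the 19 mice (left) and the deviations of both from the mean of each mouse's stage and range of numbers (right), with colours for stage and symbols for range. On the left the lactating mice stand apart from the rest and r is 0.95, and on the right the points scatter with r = 0.38.

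Within stage and range the correlations between the members were smaller, and none was tested. With each mouse taken relative to the mean of its own stage and range, r was 0.38 between Dntt and AC151971.2 and -0.13 to 0.18 for the other 5 pairs. The closest genes then differed for each member. They were Tbc1d9b (0.86), Prom1, Tmprss2, As3mt and Srebf1 (0.76) for Akr1b7, Hspb1 (0.82), Abhd1, Mrpl34 and the identical pair Rnu3b4 and Rnu3b2 (0.77) for Eif4ebp3, Lamtor2 (0.86), Lyn, AC160051.1, Selenok and Cyp2c69 (0.77) for Dntt, and Ssbp4 (0.84), Igkv4-86, Mettl5, Ino80b and Zscan2 (0.76) for AC151971.2. With 19 mice in 5 cells of stage and range, the highest of 11605 such values describe these mice only.

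Hepatocyte markers were abundant in every library. Of all TPM, Alb took 4.25% to 6.70% in nulliparous mice, 8.11% to 12.7% in lactation and 5.53% to 8.26% at involution, and the 10 most abundant genes took 25.7% to 28.0%, 29.0% to 31.2% and 26.7% to 28.8%. Alb was higher in lactation by a log2 difference of 0.86 (limma adjusted p = 0.00137), the only one of 8 hepatocyte markers to pass. Of all genes, 2.72% were higher and 6.49% lower in that comparison. The part of these shares in the members' levels was not tested.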

How the data were processed

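Messenger RNA of flash-frozen liver from 19 mice was selected with oligo(dT), made into libraries with a NEBNext Ultra kit, and sequenced with paired-end reads of 150 bases. The authors aligned the reads to GRCm38, quantified genes with RSEM 1.3.1 and deposited TPM with 2 decimals, so the read depth is unknown here. The aligner, and whether the counting used strand, are not given in the sources used here. Among 171 pairs of mice, 0 had identical values, and 0 columns were left unmapped. The authors' DESeq2 test works on read counts and was left out.

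Genes averaging at least 0.1 TPM over the mice (16230) were fitted on the log2(TPM + 1) scale with limma-trend (limma 3.58.1, R 4.3.3), with 1 mean per stage and Benjamini-Hochberg adjustment. A call needed a log2 difference of at least 1 as well as an adjusted p under 0.05. Animal-number ranges (under 200, and 200 and above) and their interaction with stage were fitted in the 13 nulliparous and lactating mice over 16179 genes. Exact permutation tests compared mean TPM over 1716 splits of the mice, or 210 in the upper range. Scripts used Python 3.11.15, numpy 2.4.6 and pandas 2.3.3 and were tested on simulated data. Positions are from GENCODE M21 and promoters from RefSeq. The members, lists and ranges were chosen with earlier results of these data known. Named genes are the members, list genes with an adjusted p under 0.05 or on which a result turns, paralogs, neighbours, and the 5 genes most alike. The alternatives were other pseudocounts, filters, scaling, moderation, covariates and left-out mice.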

Additional observations from a re-analysis of the deposited data

How the results depend on the processing

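With a pseudocount of 0.1 TPM, called genes numbered 330 in place of 121 between lactating and nulliparous livers, 894 in place of 314 between involution and lactation, 95 in place of 41 between involution and nulliparous livers, and 702 in place of 315 between the ranges of animal number. Among mice numbered 200 and above alone, the first was 188 and the third 25. Median-ratio scaling turned 167 higher and 147 lower genes at involution against lactation into 109 and 181, 13 and 28 against nulliparous livers into 6 and 28, and 6 and 7 of the difference between ranges in the lactation difference into 8 and 4. Leaving out each mouse gave 108 calls or more in the first comparison and 253 to 343, 28 to 60 and 302 to 336 in the others. It gave 2 to 15 in place of 13 for the difference between ranges in the lactation difference, with 7, 2 and 4 without LAC_133, LAC_200 and LAC_36.

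Among the members, Akr1b7 at involution against nulliparous livers held in 9 of 10 alternatives and in all 19 left-out fits (log2 1.13 to 1.39, limma adjusted p 3.16e-04 to 0.0115), and was lost only in the upper range. The sign of Dntt and AC151971.2 in that comparison reversed in the upper range (0.10 and 0.18) and with the range as a covariate (0.058 and 0.36). Between ranges, Dntt kept adjusted p of 0.00743 to 0.0309 and AC151971.2 of 4.11e-04 to 0.00506 in all 6 alternatives and 13 left-out fits. In the difference between ranges in the lactation difference, where no member passed, signs reversed for Akr1b7 with scaling (0.021) and among left-out fits (-0.31 to 0.22), for Dntt among left-out fits (-0.029 to 0.46) and for AC151971.2 at 0.1 TPM (0.016). The cause of these reversals was not tested. No paired analysis was possible because the groups share no animal numbers. TPM keep no depth, so counting error was not separated from the spread between mice.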
